A study of Saccharomyces cerevisiae with 12 samples.

Results

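The proteasome genes described here are the 34 genes on the array whose symbol begins with *PRE*, *PUP*, *RPN* or *RPT* followed by a digit, together with *SCL1*, out of 5716 probe sets tested, each paired with an *S. cerevisiae* gene. By role, 14 of them encode the core particle (7 the alpha ring and 7 the beta ring), 10 the base of the regulatory particle (6 ATPases and 4 other subunits) and 8 its lid. The same name rule also takes in *RPN4*, which encodes a transcription factor, and *RPN14*, which encodes an assembly chaperone, so that 32 of the 34 genes encode subunits. Each gene had 1 probe set, which listed that gene alone, and all 34 symbols matched those of the R64 annotation.

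The proteasome is the protease that degrades ubiquitin-tagged proteins in the cytosol and nucleus of eukaryotic cells. Its barrel-shaped core particle is built of stacked rings, with the alpha subunits gating the entrance and the beta subunits holding the proteolytic sites inside. The regulatory particle caps the barrel: the ATPases of its base unfold substrates, other base subunits bind ubiquitin or ubiquitin-like domains, and the lid removes the ubiquitin chain. In yeast, Rpn4 activates the proteasome genes and is itself a short-lived substrate of the proteasome, which closes a feedback loop on transcript supply.

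The measurements came from 12 Affymetrix GeneChip Yeast Genome 2.0 arrays, with 3 biological replicates in each of 4 groups of *S. cerevisiae*. EG103 is the wild-type strain, a *MATα GAL+* strain with the alleles *his3Δ1*, *leu2-3 112*, *ura3-52* and *trp1-289a*. EG110 is its MnSOD-deficient derivative, in which *TRP1* replaces *SOD2*, whose product is the manganese superoxide dismutase of the mitochondrial matrix. Cells of both strains were grown aerobically in ethanol medium (YPE) at 28 °C and harvested at 48 h, either untreated or with 15 mM aspirin (acetylsalicylic acid, ASA), and the aspirin medium was brought to a set pH with Trizma base. EG110 and EG103 are compared here as 1 strain each, and EG110 carries *TRP1* where EG103 does not, so that what belongs to the loss of MnSOD and what belongs to other differences between the strains cannot be told apart.

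The median of the deposited log2 values over *S. cerevisiae* genes lay between 11.15 and 11.18 on the 6 arrays of EG110 and between 11.36 and 11.39 on the 6 of EG103. The 4999 probe sets paired with no *S. cerevisiae* gene, which stand for the background, had medians of 4.00 to 4.02 in EG110 and 4.16 to 4.19 in EG103, so that genes and background shifted the same way. Every array was therefore centred on its median over genes, and all levels below are centred log2 expression unless stated otherwise. As a check of the labels, *SOD2* read 4.61 to 5.11 in EG110 and 14.07 to 14.28 in EG103. Tests were made with limma in 1 fit of the 4 groups, with Benjamini-Hochberg adjustment over all tested probe sets, and a gene is called higher or lower at an adjusted p under 0.05.

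The proteasome transcripts were tightly reproducible and moved little between groups, next to the median over all tested probe sets. The median SD between replicates was 0.028 log2 for the 34 genes in untreated EG110 (0.086 over all tested probe sets), 0.028 in aspirin-treated EG110 (0.054), 0.043 in untreated EG103 (0.073) and 0.034 in aspirin-treated EG103 (0.075). The distance between the highest and the lowest of the 4 group means had a median of 0.22 log2 over the proteasome genes and 0.50 over all tested probe sets. It lay below the latter median for 33 of the 34 genes, and the exception was *RPN14*, at 0.78. Every gene but *RPN14* had group means of 12.43 or more, above the array median of 11.27, whereas those of *RPN14* ran from 10.75 to 11.53. Probe sets of like level were not set beside them, so whether the small spread is particular to proteasome genes was not tested. The lowest of the 4 means was that of untreated EG110 for 19 genes and that of aspirin-treated EG110 for 10, while the highest was that of aspirin-treated EG103 for 18.

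**Figure D1:**
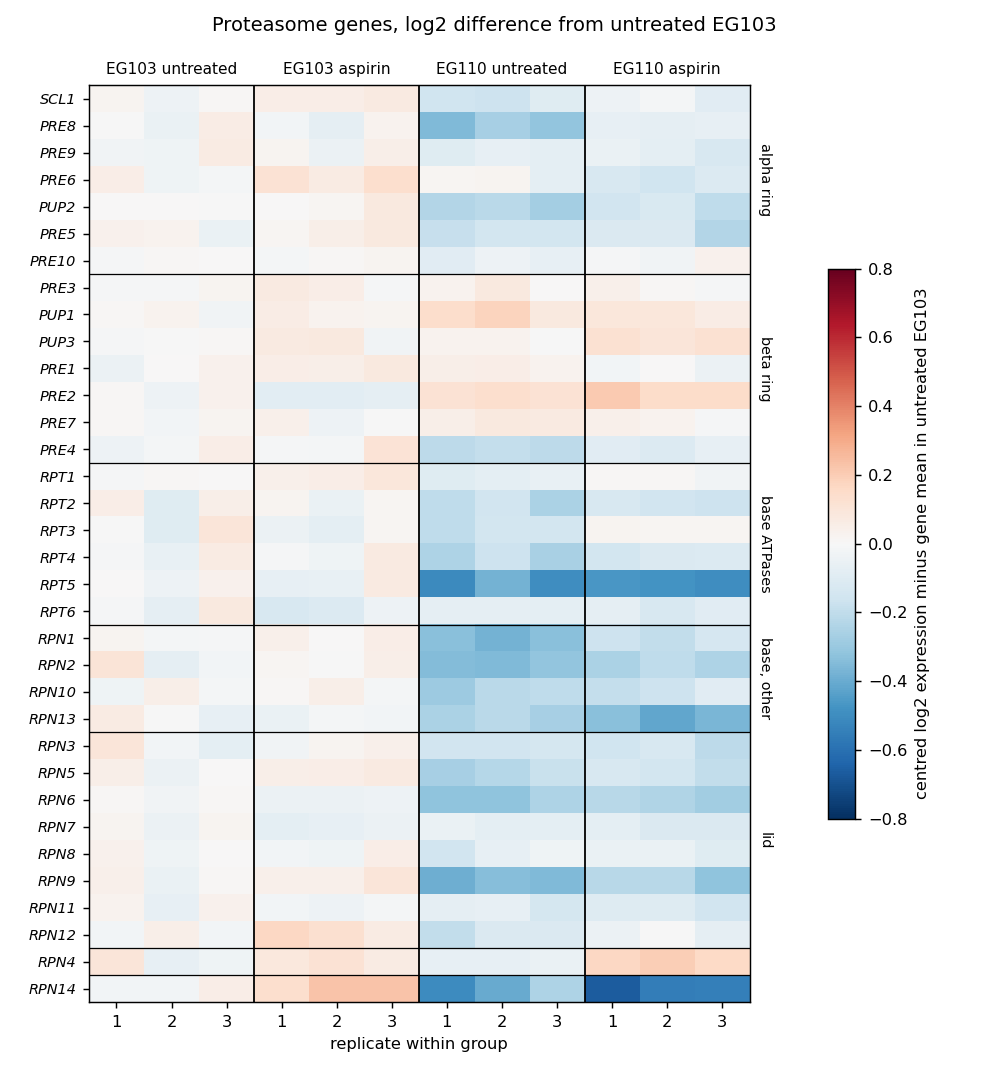
Centred log2 expression of the 34 proteasome genes on each of the 12 arrays, drawn as the difference from the mean of the gene in untreated EG103 (colour scale, log2 units; columns are replicates 1 to 3 of each group, and genes are ordered by role from top to bottom). Blue, for lower values, prevails in the EG110 columns for the base and lid genes and is deepest for *RPT5* and *RPN14*, whereas most beta ring genes are near white.

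To ask how the strains differed without the drug, untreated EG110 was set against untreated EG103. After centring, 19 of the 34 proteasome genes were lower in EG110 and 2 were higher, against 30.8% of all tested probe sets called lower and 36.8% called higher. The median difference was -0.14 log2 for the proteasome genes and 0.03 over all tested probe sets. None of the 34 reached a 1.5-fold difference, which 21.5% of all tested probe sets did in either direction. The differences were thus small, the largest being 1.37-fold, and mostly downwards in EG110. Calls as such were frequent over all tested probe sets too.

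On the centred values, the regulatory particle carried most of these calls. All 18 of its genes had a lower mean in EG110, 13 of them passed the test and none was higher, with a median difference of -0.21 log2. In the base, 8 of 10 genes were lower (median -0.23), and in the lid 5 of 8 (median -0.14). In the core particle, 5 of 14 genes were lower and 2 were higher (median -0.04). Its rings differed in their counts: 4 of the 7 alpha genes were lower and none higher (median -0.14), whereas 1 of the 7 beta genes was lower and 2 were higher (median 0.05).

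In the regulatory particle the largest difference was that of *RPT5*, which encodes an ATPase of the base. It read 12.64, 12.77 and 12.65 in untreated EG110 and 13.15, 13.11 and 13.18 in untreated EG103, so that the groups did not overlap and the difference was -0.46 ± 0.053 log2 (SE; adjusted p = 1.1e-05, limma). *RPN9*, which encodes a lid subunit, read 12.40, 12.45 and 12.44 against 12.83, 12.74 and 12.80. Its difference was -0.36 ± 0.047 (adjusted p = 2.8e-05), again without overlap. The paired scaffold subunits of the base differed by about as much. *RPN1*, whose product docks ubiquitin-like domains, read 12.99, 12.95 and 12.99 in EG110 and 13.35, 13.31 and 13.32 in EG103. *RPN2*, whose product anchors the ubiquitin receptor Rpn13, read 12.72, 12.71 and 12.75 against 13.17, 12.99 and 13.04. Both pairs of groups were separate, with differences of -0.35 and -0.34.

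The other lower genes of the regulatory particle were *RPN6* (-0.30), *RPN13* (-0.24), *RPN10* (-0.24), *RPT4* (-0.22), *RPN5* (-0.22), *RPT2* (-0.21), *RPT3* (-0.17), *RPN3* (-0.15) and *RPN12* (-0.14). Rpn10 and Rpn13 are ubiquitin receptors. The 5 regulatory genes that did not pass the test were *RPN11*, which encodes the deubiquitinase of the lid, with *RPN7*, *RPN8*, *RPT1* and *RPT6*, and their differences ran from -0.09 to -0.07.

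In the alpha ring, *PRE8* had the largest strain difference without aspirin. It read 12.81, 12.90 and 12.85 in EG110 and 13.16, 13.11 and 13.22 in EG103, a difference of -0.31 ± 0.047 (adjusted p = 1.1e-04) with no overlap. *PUP2* (-0.24), *PRE5* (-0.16) and *SCL1* (-0.14) were also lower, while *PRE6*, *PRE9* and *PRE10* were not called, with differences of -0.01, -0.08 and -0.07. In the beta ring, *PRE4* was lower by this test (-0.20, adjusted p = 0.0025).

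The 2 genes that were higher both encode catalytic subunits of the beta ring, *PRE2* the chymotrypsin-like and *PUP1* the trypsin-like one. *PUP1* read 13.16, 13.20 and 13.10 in EG110 and 13.03, 13.05 and 12.99 in EG103 (difference 0.13 ± 0.043, adjusted p = 0.016). *PRE2* read 13.57, 13.59 and 13.57 against 13.46, 13.41 and 13.49 (0.12 ± 0.042, adjusted p = 0.021). Neither pair of groups overlapped, but both calls were lost without replicate 1 or without replicate 2 of every group, and without replicate 2 of untreated EG110. That of *PUP1* was also lost without replicate 3 of untreated EG103, and that of *PRE2* without replicate 2. *PRE3*, the gene of the third catalytic subunit with a caspase-like activity, was not called (0.04, adjusted p = 0.41), nor was *PRE7* (0.07, adjusted p = 0.17), which read 13.41, 13.44 and 13.43 against 13.37, 13.34 and 13.38 without overlap.

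How large these differences look depends on how the arrays are brought to 1 scale. On the values as deposited, without centring, 33 of the 34 genes were lower and 0 higher in untreated EG110 (median -0.37), where the median of all tested probe sets was itself -0.20 and 51.8% of them were called lower and 20.8% higher. With quantile normalization of all arrays, 31 were lower and 0 higher (median -0.27), against 35.7% lower and 31.8% higher of all, whose median was -0.02. Of the regulatory and core genes, 18 of 18 and 11 of 14 were lower with quantile normalization, and 18 and 13 as deposited. All 7 alpha ring genes were lower on either scale, with a quantile-normalized median of -0.26, like that of the lid (-0.26). In the beta ring, 4 of 7 were lower with quantile normalization and 6 as deposited. *PUP1* was at -0.09 and *PRE2* at -0.10 on the deposited values, so either was higher in EG110 only relative to the array median. The calls of *RPT5*, *RPN1*, *RPN2* and *RPN9* were made under every scaling.

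**Figure D2:**
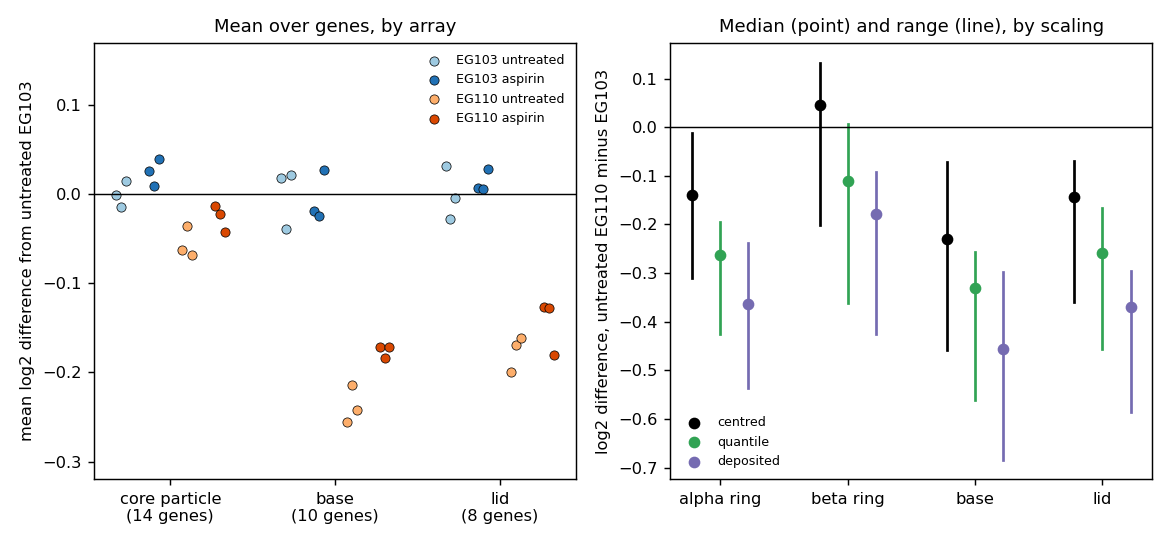
Left, the difference from untreated EG103 in centred log2 expression, averaged over the genes of the core particle, base and lid on each array (points; colours are the 4 groups). Right, the median (point) and the range (line) of the log2 difference between untreated EG110 and untreated EG103 over the genes of each role under 3 scalings. The base and lid points of EG110 lie at or below -0.127 on all 6 arrays, and the beta ring is the group whose median changes sign with the scaling, from 0.05 when centred to -0.18 as deposited.

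A comparison of the particles within each array does not depend on the centring, because a shift of the whole array moves both alike. Scalings that are not a shift can still change it. The untreated strain medians of the regulatory and core particles were -0.21 and -0.04 when centred, but -0.31 and -0.21 with quantile normalization. Within the core, the centred medians were -0.14 in the alpha ring, as in the lid, and 0.05 in the beta ring. Relative to untreated EG103, the mean over the 18 regulatory genes minus the mean over the 14 core genes was -0.155 ± 0.016 log2 in untreated EG110 and -0.136 ± 0.0024 in aspirin-treated EG110 (SD, n = 3). In aspirin-treated EG103 it was -0.022 ± 0.011. The 6 EG110 arrays lay between -0.168 and -0.134, and the 6 EG103 arrays between -0.033 and 0.024, with no overlap. These means are given as a description of the arrays, without a test.

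The strains were compared again with both grown in aspirin. There 18 of the 34 genes were lower in EG110 and 1 was higher, against 33.2% and 35.7% of all tested probe sets, and the median difference was -0.11 log2 for the proteasome genes and 0.02 over all tested probe sets. A 1.5-fold difference was reached by *RPN14* alone, and by 22.2% of all tested probe sets. In the regulatory particle 12 of 18 genes were lower (7 of 10 in the base and 5 of 8 in the lid), and in the core particle 5 of 14 were lower and 1 was higher. On the deposited values 33 were lower and 0 higher, where 51.6% of all tested probe sets were called lower and 21% higher. With quantile normalization 26 were lower and 0 higher, against 35.3% and 33% of all tested probe sets. Of these 26, 15 were regulatory and 9 core genes.

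*RPN14* differed most. Its product, a chaperone that helps to assemble the ATPase ring of the base, is not part of the finished proteasome. It read 10.67, 10.78 and 10.79 in aspirin-treated EG110 and 11.47, 11.56 and 11.56 in aspirin-treated EG103, a difference of -0.78 ± 0.066 (1.72-fold, adjusted p = 8.6e-07). In the untreated cells it read 10.83, 10.93 and 11.09 against 11.31, 11.31 and 11.39 (-0.39, adjusted p = 2.7e-04). Thus each of the 6 EG110 arrays was below each of the 6 EG103 arrays. Untreated EG110 was also where its replicates were widest apart, with an SD of 0.129.

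*RPT5* kept the difference it had without the drug, at -0.46 ± 0.053 (adjusted p = 1.1e-05), with 12.68, 12.67 and 12.65 against 13.08, 13.09 and 13.22. *RPN13* read 12.52, 12.44 and 12.49 in EG110 and 12.80, 12.84 and 12.83 in EG103, a difference of -0.34 ± 0.047 (adjusted p = 4.7e-05). For both genes the groups were separate. *PRE2* was the only gene called higher, reading 13.66, 13.60 and 13.60 against 13.37, 13.37 and 13.38, without overlap (0.24 ± 0.042, adjusted p = 2.8e-04). Its difference shrank to 0.04 (adjusted p = 0.45) on the deposited values. *PUP3*, a beta ring gene, read 13.51, 13.49 and 13.51 against 13.46, 13.47 and 13.36, also separate, but was not called (0.07, adjusted p = 0.17).

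The genes called lower in EG110 in both conditions numbered 17. They comprised 12 of the regulatory particle (*RPT2*, *RPT4*, *RPT5*, *RPN1*, *RPN2*, *RPN10*, *RPN13*, *RPN3*, *RPN5*, *RPN6*, *RPN9* and *RPN12*), 3 of the alpha ring (*SCL1*, *PUP2* and *PRE5*), 1 of the beta ring (*PRE4*) and *RPN14*. How many of all tested probe sets were lower in both was not counted, while 30.8% were lower untreated and 33.2% with aspirin. With aspirin, leaving out arrays in 15 fits lost the call of *SCL1* in 13, *PRE4* in 9, *RPT4* in 8 and *RPT2* in 7. The untreated and the aspirin comparison share no array, but they share the strains and, through the single fit, the estimate of the spread.

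**Figure D3:**
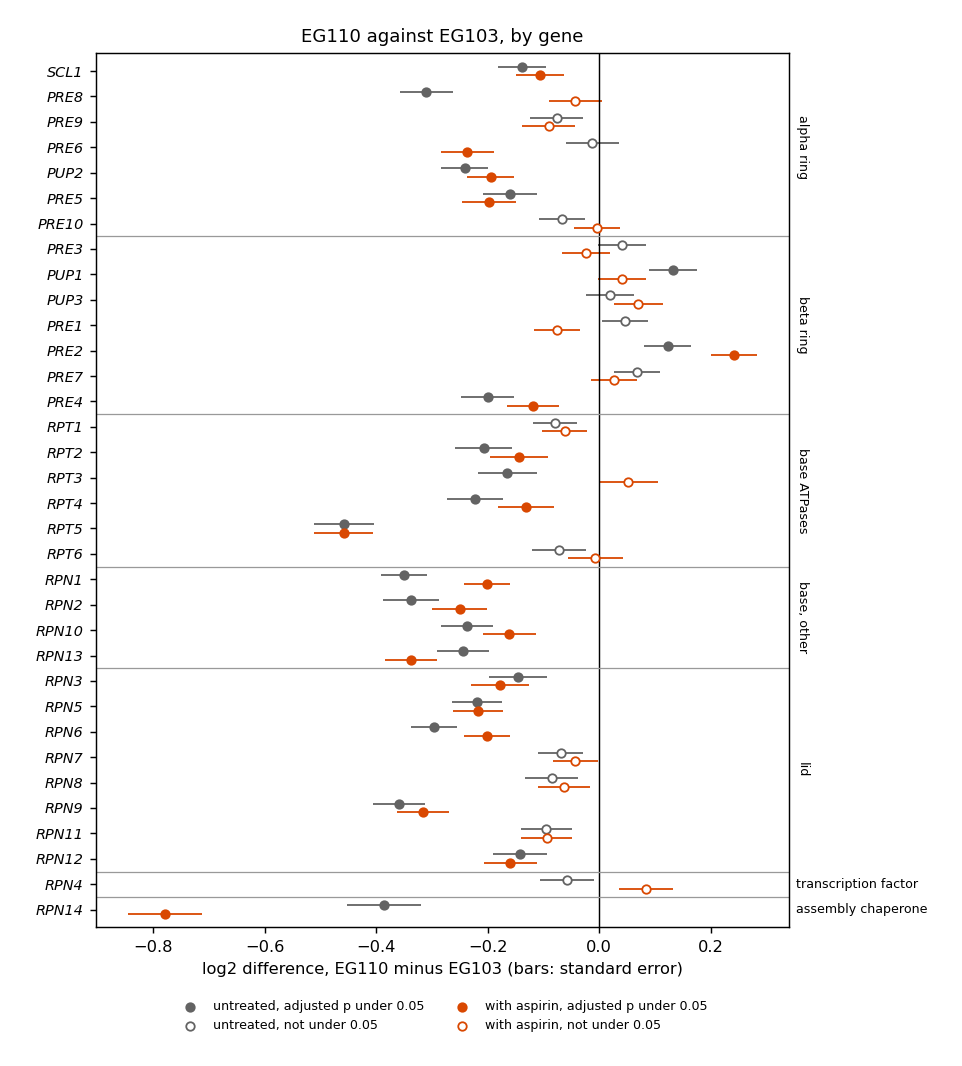
Log2 difference between EG110 and EG103 for each proteasome gene, untreated (grey) and with aspirin (orange), from the centred values; bars are standard errors and filled points have an adjusted p under 0.05. *RPN14* with aspirin stands at -0.78 and *RPT5* at -0.46 in both conditions, while the beta ring genes other than *PRE4* lie between -0.08 and 0.24.

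Aspirin was then compared with no treatment within each strain. In EG110, 4 of the 34 proteasome genes were higher with aspirin and 2 were lower, against 26% and 26.9% of all tested probe sets. The median change was 0.05 log2 for the proteasome genes and 0.00 over all tested probe sets. None reached 1.5-fold, which 12% of all tested probe sets did. At an unadjusted p under 0.05 the count was 9, against 3308 of the 5716 tested probe sets. The 4 that rose were *PRE8*, *RPN4*, *RPT3* and *RPN1*, and the 2 that fell were *RPN14* and *RPN13*. No gene of the beta ring or the lid passed the test. With quantile normalization, 12 genes were higher and 1 was lower, with 3 lid genes and 1 beta ring gene among the 12, against 27.1% and 25.8% of all tested probe sets.

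*RPN4* read 14.04, 14.07 and 14.03 with aspirin and 13.81, 13.81 and 13.82 without it in EG110. The groups were far apart for their spread, and the change was 0.23 ± 0.048 (1.17-fold, adjusted p = 0.0017, limma). In EG103 the gene read 13.96, 13.99 and 13.94 with aspirin and 13.97, 13.81 and 13.84 without, where the first untreated replicate lay among the treated ones (0.09 ± 0.048, adjusted p = 0.21). The changes in the strains were not shown to differ, since their difference was 0.14 ± 0.068 (adjusted p = 0.13). Between the strains, *RPN4* was not called either untreated (-0.06, adjusted p = 0.31) or with aspirin (0.08, adjusted p = 0.14). On the other scales it was lower in EG110 in both conditions. The untreated difference was -0.28 on the deposited values (adjusted p = 1.3e-04) and -0.28 with quantile normalization (adjusted p = 1.3e-04), and the one with aspirin turned to -0.12 (adjusted p = 0.031) and -0.11 (adjusted p = 0.045).

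*PRE8*, in the alpha ring, went from 12.81, 12.90 and 12.85 to 13.10, 13.09 and 13.10 in EG110 (0.24 ± 0.047, adjusted p = 0.0011). *RPT3*, which encodes an ATPase of the base, went from 12.79, 12.85 and 12.85 to 13.02, 13.01 and 13.01 (0.18 ± 0.053, adjusted p = 0.012). *RPN1* read 13.16, 13.13 and 13.19 with aspirin against 12.99, 12.95 and 12.99 (0.18 ± 0.041, adjusted p = 0.0027). In all 3 genes every treated array was above every untreated one, but all 3 calls were lost without replicate 1 of every group, and that of *RPT3* also without replicate 2.

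*RPN14* fell by 0.20 ± 0.066 in EG110 (adjusted p = 0.025), and its highest treated array, at 10.79, was just under its lowest untreated one, at 10.83. *RPN13*, the ubiquitin receptor, fell by 0.12 ± 0.047 (adjusted p = 0.043), from 12.60, 12.64 and 12.59 to 12.52, 12.44 and 12.49. Same-numbered EG110 replicates correlated weakly in their deviations (r from 0.142 to 0.343). With the replicate number as a block 1 gene was lower, since *RPN13* was no longer called. The call of *RPN13* was also lost on the deposited values and in 11 of 15 fits that left out arrays, and that of *RPN14* in 5 of them. *PRE6*, in the alpha ring, read 13.49, 13.46 and 13.51 with aspirin and 13.63, 13.64 and 13.54 without, and its change of -0.12 missed the threshold (adjusted p = 0.053) although the groups were separate.

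In EG103, none of the 34 genes passed the test in either direction, against 12.7% of all tested probe sets called higher and 8.69% called lower with aspirin, and 2.61% called at 1.5-fold or more. By limma, 3 of the 34 had an unadjusted p under 0.05, against 2052 of the 5716 tested probe sets. The unpaired *t*-test that the study names under its table of array fold changes gave 4 higher and 2 lower at that unadjusted level. Its calls over all tested probe sets were not counted. The changes ran from -0.09 (*RPT6*) to 0.19 (*RPN14*), with a median of 0.01. The 95% confidence intervals of the 32 subunit genes stayed within a 1.17-fold change either way, and that of *RPN14* reached 1.27-fold.

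The members that moved most in EG103 were *RPN14*, *RPN12* and *PRE6* upwards and *RPT6*, *PRE2* and *RPN7* downwards. *RPN14* read 11.47, 11.56 and 11.56 with aspirin against 11.31, 11.31 and 11.39, and the groups were separate (0.19 ± 0.066, adjusted p = 0.057). *RPN12*, in the lid, read 12.75, 12.71 and 12.65 against 12.56, 12.63 and 12.56, also without overlap (0.12 ± 0.048, adjusted p = 0.099). *PRE6* read 13.73, 13.68 and 13.75 against 13.67, 13.58 and 13.60 (0.11, adjusted p = 0.13). *RPT6*, an ATPase gene, read 13.29, 13.31 and 13.38 against 13.41, 13.35 and 13.50 and the groups overlapped (adjusted p = 0.19). *PRE2* read 13.37, 13.37 and 13.38 against 13.46, 13.41 and 13.49, while *RPN7* read 12.90, 12.91 and 12.93 against 13.00, 12.93 and 13.00.

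**Figure D4:**
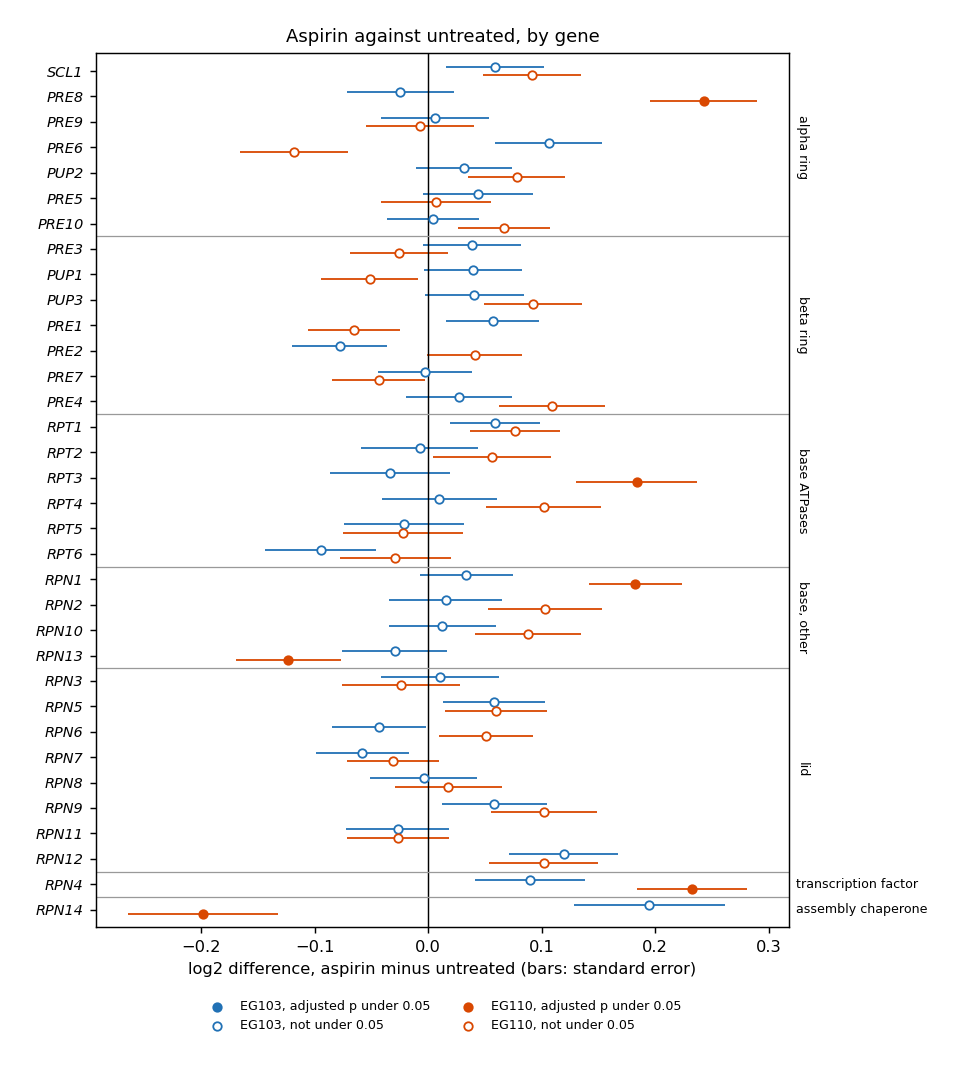
Log2 change with aspirin for each proteasome gene in EG103 (blue) and EG110 (orange), from the centred values; bars are standard errors and filled points have an adjusted p under 0.05. The 6 filled points all belong to EG110, and every change lies between -0.20 and 0.24.

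The interaction of strain and aspirin tests whether the change with aspirin differed between the strains, and it called 4 of the 34 genes. The change was more positive in EG110 for 2 genes and more negative for 2, against 14.8% and 18.8% of all tested probe sets. None of these differences reached 1.5-fold, as 11.8% of all tested probe sets did. An unadjusted p under 0.05 was found for 5 genes, against 2464 of the 5716 tested probe sets. *PRE8* changed by 0.24 in EG110 and by -0.02 in EG103 (interaction 0.27 ± 0.067, adjusted p = 0.0098). *RPT3* changed by 0.18 and -0.03 (0.22 ± 0.075, adjusted p = 0.043). Between the aspirin-treated strains, neither gene was called on the centred values (-0.04 and 0.05), whereas both were lower in EG110 on the deposited values, *PRE8* at -0.25 (adjusted p = 8.0e-04) and *RPT3* at -0.15 (adjusted p = 0.026).

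The remaining 2 genes had changes of opposite sign. *RPN14* was at -0.20 in EG110 and 0.19 in EG103 (interaction -0.39 ± 0.094, adjusted p = 0.0077). *PRE6* was at -0.12 and 0.11, neither of them past the threshold alone, and the interaction was -0.22 ± 0.067 (adjusted p = 0.023). *PRE6* was not called between the untreated strains (-0.01, adjusted p = 0.83) and was lower in EG110 with aspirin (-0.24, adjusted p = 8.1e-04). *RPN1*, with an interaction of 0.15, missed the threshold (adjusted p = 0.066), as did *PRE1* with -0.12 (adjusted p = 0.13). *PRE1*, a beta ring gene, read 13.26, 13.29 and 13.24 with aspirin against 13.33, 13.34 and 13.31 in EG110, and 13.34, 13.33 and 13.36 against 13.24, 13.29 and 13.32 in EG103, with no overlap in either strain. The call of *RPT3* was lost in 12 of the 15 fits that left out arrays and that of *PRE6* in 6.

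**Figure D5:**
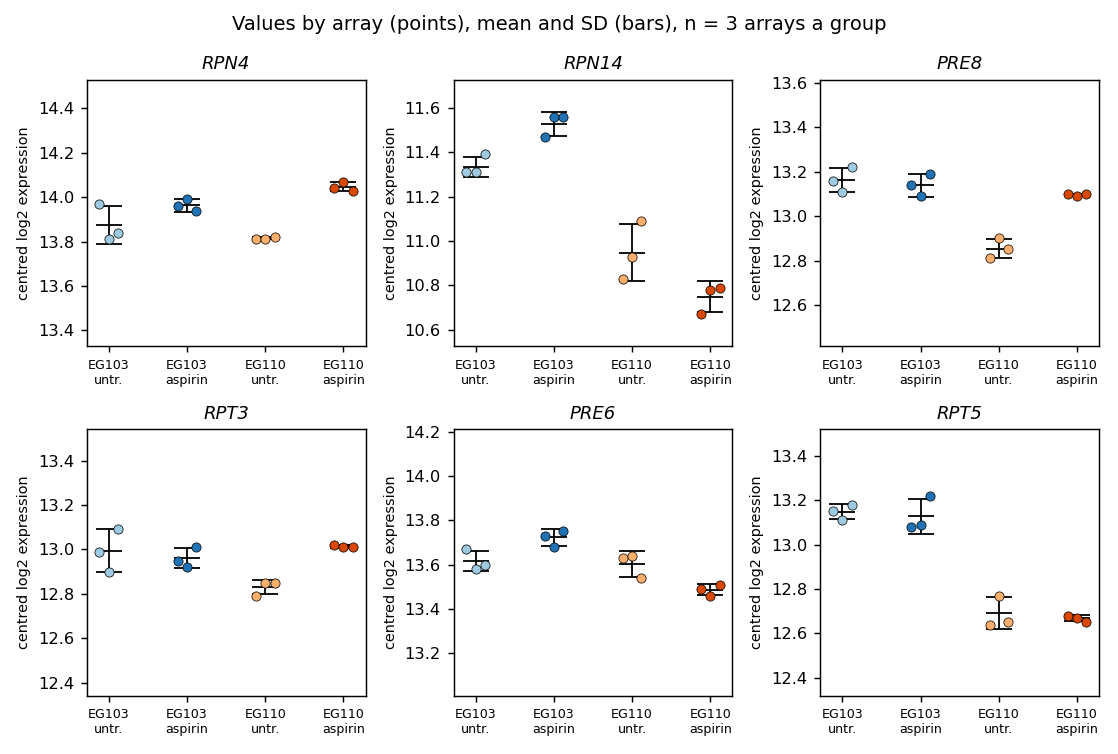
Centred log2 expression of 6 proteasome genes on each array (points), with the group mean and SD (bars, n = 3 arrays a group); the vertical axes span the same distance but start at different levels. Untreated EG110 lies lowest for *PRE8* and *RPT3*, aspirin-treated EG110 lies highest for *RPN4* at 14.03 to 14.07, and both EG110 groups lie below both EG103 groups for *RPN14* and *RPT5*.

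Factors that build, cap or feed the proteasome were examined beside the subunit genes. For these and the other lists below, values were computed on the centred scale alone. How their strain differences stand on the deposited or the quantile scale was not tested. Of 17 genes of assembly and associated factors, 3 were higher and 5 lower with aspirin in EG110 (26% and 26.9% of all tested probe sets), and 3 higher and 1 lower in EG103 (12.7% and 8.69%). Between the strains 6 were higher and 4 lower in EG110, both untreated (36.8% and 30.8% of all) and with aspirin (35.7% and 33.2%). *SEM1*, which encodes the lid subunit that the name rule leaves out, read 12.32, 12.36 and 12.40 in untreated EG110 and 13.02, 12.92 and 12.80 in untreated EG103, well apart (-0.55, adjusted p = 3.6e-06). With aspirin its difference was -0.56 (adjusted p = 2.9e-06).

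Of the assembly chaperones, *IRC25*, which acts on the alpha ring, rose with aspirin in EG110. It went from 10.15, 10.03 and 10.34 to 10.77, 10.90 and 10.90 (0.68, adjusted p = 8.9e-05), and in EG103 read 10.88, 10.65 and 10.57 with aspirin against 10.47, 10.60 and 10.63 (0.13, adjusted p = 0.33). The changes differed between the strains (interaction 0.55, adjusted p = 0.0078). *TMA17*, a chaperone for the base, fell in EG110 from 13.77, 13.70 and 13.70 to 13.07, 12.94 and 12.96 (-0.73, adjusted p = 9.2e-06). It also fell in EG103 (-0.31, adjusted p = 0.013), by less than in EG110 (interaction -0.42, adjusted p = 0.0098).

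Among the caps and binding factors, *BLM10*, which encodes an alternative activator of the core particle, was higher in untreated EG110. It read 12.28, 12.26 and 12.13 against 11.35, 11.47 and 11.36 in EG103, far apart (0.84, 1.78-fold, adjusted p = 2.0e-07). The gene listed as *YCR076C*, also known as *FUB1*, encodes a product that binds proteasome subunits. It read from 11.95 to 12.14 against 11.35, 11.59 and 11.39 and was likewise higher in untreated EG110 (0.59, adjusted p = 1.5e-05). Between the aspirin-treated strains, none of the 17 genes of this list was 1.5-fold higher in EG110, the largest upward difference being 0.53.

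In the ubiquitin system, 8 of 20 genes were higher and 7 lower in untreated EG110 than in untreated EG103 (36.8% and 30.8% of all tested probe sets), and 6 and 8 with aspirin (35.7% and 33.2%). With aspirin against none, 5 were higher and 3 lower in EG110 (26% and 26.9% of all), and 4 higher and 1 lower in EG103 (12.7% and 8.69%). *UBC7* encodes a ubiquitin-conjugating enzyme that acts at the endoplasmic reticulum. It read 12.18, 12.16 and 12.36 in untreated EG110 against 12.79, 12.83 and 12.85 in untreated EG103 (-0.59, adjusted p = 3.6e-06). Another list held the 9 genes of Cdc48, the segregase that extracts ubiquitinated proteins, its cofactors and the shuttle factors. Of these 9, 2 were lower and 0 higher with aspirin in EG110, against the same 26.9% and 26% of all. In EG103 0 were called by limma and 2 had an unadjusted p under 0.05, as 2052 of the 5716 tested probe sets did. Between the strains, 2 were higher and 4 lower in untreated EG110 (36.8% and 30.8% of all), and 4 higher and 5 lower with aspirin (35.7% and 33.2%).

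The genes of 4 factors known to activate *RPN4* in yeast were also followed. With aspirin, 3 of the 4 rose in EG110 (26% of all tested probe sets), and 2 of the 4 in EG103 (12.7%). Between the untreated strains, 3 of the 4 were lower in EG110 and 0 higher (30.8% and 36.8% of all), with a median difference of -0.22 log2. Between the aspirin-treated strains, 1 was lower and 1 higher in EG110 (33.2% and 35.7% of all), with a median of 0.01. *PDR1*, for a regulator of drug resistance, rose in EG110 from 11.36, 11.42 and 11.39 to 11.80, 11.82 and 11.79 (0.42, adjusted p = 4.3e-04) and in EG103 by 0.22 (adjusted p = 0.047). *PDR3*, its paralogue, rose by 0.34 in EG110 and by 0.33 in EG103. *HSF1*, for the heat shock factor, read 11.37, 11.30 and 11.34 with aspirin against 11.02, 10.99 and 11.07 in EG110 (0.31, adjusted p = 1.4e-04), and did not pass the test in EG103 (-0.04, adjusted p = 0.60). Its change differed between the strains (interaction 0.34, adjusted p = 0.0016). *YAP1*, for the oxidative stress regulator, was called in neither strain (0.10 in EG110 and 0.01 in EG103).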

How the data were processed

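Log2 expression values of 12 Affymetrix arrays were deposited by the authors in 1 table, made by robust multi-array averaging (RMA) in AltAnalyze. Whether both strains were normalized together is not given in the sources used here. The authors also deposited log2 fold changes, signed fold scores and P-values, unadjusted and adjusted, from moderated t-statistics of aspirin-treated against untreated cells of each strain, and these were not used. No other columns of values per array were left unused (0), and no 2 arrays were identical (0 pairs). The 213 control probe sets and the 4999 without an *S. cerevisiae* gene were not tested, and no filter on low values was applied. Array files before RMA were not used, and the number of arrays limits the precision.

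Each array was centred on its median over the 5770 probe sets with a gene identifier, controls for yeast genes included, and all medians were set to their mean (11.27). limma 3.58.1 in R 4.3.3 fitted the 4 groups (8 residual degrees of freedom) and gave 5 comparisons, with two-sided tests adjusted by Benjamini-Hochberg over 5716 probe sets. The scripts were tested on simulated data. Single exact permutation tests of 3 against 3 arrays cannot go below p = 0.10 and were not used. Groups and replicate numbers came from the sample labels, which name biological replicates. Same-numbered EG110 arrays with and without aspirin correlated in their deviations from the group means (r = 0.229, 0.142 and 0.343). Each value was above 0.1, and by that rule the numbers were taken to pair them, from the data and not from the labels. The values do not single out pairs, since EG110 arrays of unlike number gave r from -0.387 to 0.221. In EG103 same-numbered arrays gave 0.0166, 0.485 and 0.45, and arrays of unlike number gave -0.492 to 0.182. Replicates 2 and 3 thus went together at least as closely there, but replicate 1 missed the rule. Between the strains, same-numbered arrays gave mostly negative values. The main fit did not use the pairing, which entered only in the alternative with the replicate number as a block.

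Given with array values were *RPN4*, the 3 proteasome genes with the largest rise and fall in each comparison, and genes of the other lists called at 1.5-fold or more. Other genes given in detail, *SEM1*, *PDR1*, *PDR3*, *HSF1* and *YAP1* among them, were chosen after their values were seen. The proteasome genes and all lists were chosen with earlier results of these data known. Alternatives were the deposited scale, quantile normalization, a filter, other variance models and tests, other probe sets, a replicate block and leaving out arrays.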

Additional observations from a re-analysis of the deposited data

Results flagged for a closer look

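The change with aspirin differed between EG110 and EG103, by the interaction in the limma fit, for 4 proteasome genes. The difference between the changes, EG110 minus EG103, was 0.27 log2 for *PRE8*, 0.22 for *RPT3*, -0.22 for *PRE6* and -0.39 for *RPN14*. The interaction of *PRE8* had an adjusted p of 0.19 without replicate 1 and 0.061 without replicate 2 of every group, and that of *RPN14* had 0.095 without replicate 2. No group was tested for a single array standing apart, since each held 3.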

How the results depend on the processing

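Between the strains, the calls of *RPT5*, *RPN1*, *RPN2*, *RPN6*, *RPN9*, *RPN13* and *PUP2* were lost in both conditions only where 1.5-fold was required. Less steady were *RPN3* untreated, lost under 10 of 25 alternatives, and, with aspirin, *SCL1* (17), *PRE4* (13), *RPT4* (10) and *RPT2* (9). The call of *RPN14* between the aspirin-treated strains was made under all 25 alternatives, and that of *RPN4* with aspirin in EG110 under 24 of 25 (adjusted p from 4.6e-04 to 0.037). The scaling mattered most. For untreated EG110 against EG103, the 19 lower and 2 higher genes became 33 and 0 on the deposited values and 31 and 0 with quantile normalization. With aspirin, 18 and 1 became 33 and 0 as deposited, and the higher count was 0 with quantile normalization. On the deposited values, differences turned to -0.21 (*PUP3*), -0.18 (*PRE1*), -0.18 (*PRE3*), -0.16 (*PRE7*), -0.10 (*PRE2*) and -0.093 (*PUP1*) in the untreated strains, and to -0.13 (*PUP3*), -0.12 (*RPN4*), -0.15 (*RPT3*), -0.18 (*PRE7*) and -0.16 (*PUP1*) with aspirin. With quantile normalization they turned to -0.17 (*PUP3*), -0.14 (*PRE3*), -0.11 (*PRE7*) and -0.092 (*PRE2*) untreated, and -0.11 (*RPN4*) with aspirin. Another 130 single values changed sign without being called on either side. With aspirin in EG110, quantile normalization gave 12 higher and 1 lower, and the deposited values 1 lower. For the interaction, quantile normalization gave 1 lower.

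The unpaired *t*-test that the study names under its table of array fold changes, beside the moderated statistics of its methods, was applied to these values. It gave 8 higher after adjustment and 13 without it with aspirin in EG110. It also gave 4 higher and 2 lower without adjustment in EG103, and 2 higher between the aspirin-treated strains either way. How many of all tested probe sets this test called was not counted, so these counts have no share beside them. With only the arrays compared in the fit, 0 were lower with aspirin in EG110, 1 was higher in EG103 and 0 were higher in untreated EG110. Testing all probe sets but the controls left 0 lower with aspirin in EG110, 1 higher in untreated EG110, and 1 higher and 1 lower for the interaction. At 1.5-fold or more, 0 genes were counted anywhere but for 1 lower between the aspirin-treated strains. The replicate block left 1 lower with aspirin in EG110 and gave 1 higher in EG103, *RPN14*, where the numbers were not taken to pair the arrays. No other count moved by over 1.5 times with it.

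Leaving out arrays, with aspirin in EG110 the counts ran from 1 to 6 higher and from 0 to 2 lower, the lowest higher count without replicate 1 of every group. In EG103 they ran from 0 to 1 higher and stayed at 0 lower. For the untreated strains they ran from 0 to 2 higher and from 11 (without replicate 1) to 19 lower, and with aspirin they stayed at 1 higher and ran from 11 (without replicate 2) to 18 lower. For the interaction they ran from 0 to 2 in either direction. Fewer arrays leave fewer degrees of freedom. The causes of the other shifts were not tested.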
